A study of Mus musculus with 12 samples.

Results

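The adrenal transcripts described here belong to the complement system, the set of plasma and membrane proteins that marks and lyses foreign cells. All 6 members looked for by gene symbol were measured, each with 1 probeset, out of 6986 genes with a single symbol in the table analysed here. They are C6, C7 and C9, which are terminal components, and C4bp, Cd55 and Cr1l, which restrain the cascade. RNA came from whole, snap-frozen adrenal glands of KK/HlJ males (KK-M), KK/HlJ females (KK-F), C57BL/6J males (C57-M) and C57BL/6J females (C57-F). The mice were 21 weeks old by the sample records, while the study's methods give a slightly younger age at its end. KK/HlJ, spelled KK/HIJ in the sample labels, is an inbred strain prone to obesity and insulin resistance, and C57BL/6J is the common inbred laboratory strain. All 4 groups ate standard chow, were kept pathogen-free, and went through the same insulin tolerance test. At the end they were fasted for some hours and euthanized with xylazine and ketamine. Per the methods, equal amounts of RNA from every mouse of a group were combined, which gave 4 pools, and 3 arrays were hybridised with every pool, 12 in all. The p-values below therefore measure the spread between arrays of 1 pool and hold no spread between mice, so they say nothing of how far a difference extends to other mice of the strain or sex. Values are log2 expression after robust multi-array averaging, so a difference of 1 is a doubling, and levels are compared only within a gene.

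In the complement cascade, a chain of proteases ends in the cleavage of C5, and the fragment C5b then gathers C6, C7, C8 and several copies of C9 into a pore called the membrane attack complex. C6 binds C5b first, C7 gives the growing complex its hold on the lipid bilayer, and C9 forms the wall of the pore. Most complement proteins of plasma are made by hepatocytes, and several are also made locally by macrophages, fibroblasts and other cells of many tissues. Regulators keep the cascade off host cells. C4bp is a soluble inhibitor that binds C4b and serves as a cofactor for its cleavage, Cd55 is a lipid-anchored membrane protein that speeds the decay of the convertases, and Cr1l, known in rodents as Crry, is a membrane protein that does this and also acts as a cofactor for cleavage of C3b and C4b.

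Markers of the gland were present on every array, with the cortical steroid hydroxylase genes Cyp11b1 (12.4 to 12.9 over the 12 arrays) and Cyp11b2 (8.93 to 10.2) and the genes of the catecholamine-making medulla Chga (11.8 to 12.7) and Pnmt (9.42 to 11) all far above the filter level of 4. Arrays of a group correlated at 0.9604 or more, and the spread between arrays was widest in KK-M (residual SD 0.204, against 0.16 in KK-F, 0.154 in C57-M and 0.167 in C57-F). The gland's own markers were not even across the pools. Summed on the linear scale, 3 medulla genes gave 8040 to 8980 in KK-M and 6570 to 6790 in KK-F. They gave 5400 to 5870 in C57-M and 4460 to 4600 in C57-F. Mean Cyp11b2 was 10.1 in KK-M and 10.2 in C57-M, against 9.1 in KK-F and 9.37 in C57-F. The pool means of Cyp11b1 lay between 12.5 and 12.8. Genes typical of other tissues also differed between the pools. The summed signal of 8 skeletal muscle genes was 1110 to 1310 in KK-M, 133 to 140 in KK-F, 200 to 210 in C57-M and 180 to 187 in C57-F, on the linear scale. That of 14 hepatocyte genes was 271 to 468 in KK-M, 281 to 291 in KK-F, 1510 to 1570 in C57-M and 2440 to 2550 in C57-F. That of 4 white adipocyte genes was 570 to 597 in KK-M, 297 to 318 in KK-F, 726 to 791 in C57-M and 713 to 732 in C57-F. In bulk RNA of a whole gland, fewer cells of a type cannot be told apart from less RNA per cell.

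C6, C7 and C9 lie near each other on chromosome 15, and C4bp, Cd55 and Cr1l all lie on chromosome 1. In RefSeq gene order, 1 coding gene (Mroh2b) stands between C6 and C7, 6 stand between C7 and C9, and 1 (Zp3r) stands between Cd55 and C4bp. Promoter sequences of all 6 members were found in RefSeq (build GRCm38.p6), as windows of 300 bases that run from 250 bases before the start of transcription to 50 after it. Those of the 4 members that fell in KK mice of at least 1 sex are printed 5′ to 3′ on the gene's own strand, since C6 parted from C7, C9 and C4bp in the females. The windows are chr15:4726960-4727259 on the plus strand for C6, chr15:5063724-5064023 on the minus strand for C7, chr15:6445096-6445395 on the plus strand for C9 and chr1:130661569-130661868 on the minus strand for C4bp. Capitals mark letters that match 1 of 6 short motifs, read on both strands.
C6: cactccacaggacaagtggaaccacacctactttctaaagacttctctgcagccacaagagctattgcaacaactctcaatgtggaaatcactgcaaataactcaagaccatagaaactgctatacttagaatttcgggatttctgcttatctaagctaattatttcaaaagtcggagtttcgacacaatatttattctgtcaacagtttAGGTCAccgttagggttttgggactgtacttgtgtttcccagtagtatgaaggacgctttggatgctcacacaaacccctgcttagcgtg
C7: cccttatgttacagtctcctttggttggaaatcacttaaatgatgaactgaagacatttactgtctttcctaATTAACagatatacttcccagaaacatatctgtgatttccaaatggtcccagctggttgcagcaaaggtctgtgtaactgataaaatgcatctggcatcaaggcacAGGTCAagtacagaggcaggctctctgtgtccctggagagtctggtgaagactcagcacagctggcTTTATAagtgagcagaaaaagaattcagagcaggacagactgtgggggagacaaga
C9: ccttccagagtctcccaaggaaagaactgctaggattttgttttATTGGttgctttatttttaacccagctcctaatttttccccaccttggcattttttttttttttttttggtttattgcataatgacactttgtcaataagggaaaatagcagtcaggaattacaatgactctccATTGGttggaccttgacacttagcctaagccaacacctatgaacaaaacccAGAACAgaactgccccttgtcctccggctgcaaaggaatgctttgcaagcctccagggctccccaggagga
C4bp: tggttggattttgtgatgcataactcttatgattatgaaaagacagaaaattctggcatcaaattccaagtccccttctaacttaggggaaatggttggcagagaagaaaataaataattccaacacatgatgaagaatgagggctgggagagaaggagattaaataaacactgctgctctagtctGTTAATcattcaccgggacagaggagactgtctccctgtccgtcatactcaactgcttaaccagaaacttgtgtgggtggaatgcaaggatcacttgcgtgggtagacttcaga

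The TATA box was searched for by the letters TATAAA. The CCAAT box was searched for by the letters of its name. For the liver factor HNF1 the half-site GTTAAT was used, for the androgen and glucocorticoid receptors the half-site AGAACA, and for other nuclear receptors the half-site AGGTCA. The GC box was searched for by the letters GGGCGG. None of the 6 is contained in another. Positions are those of the first printed base of a match, counted from the start of transcription and negative before it. C6 and C7 shared AGGTCA, at -40 in C6 and at -72 in C7, a match that 16.3% of 32851 mouse promoter windows also hold. C7 and C4bp shared GTTAAT, at -178 on the opposite strand in C7 and at -64 in C4bp, and 7.1% of all windows hold it. It was also found in Cd55, at 15 on the opposite strand. C9 alone of the 6 held AGAACA, at -21 (19% of all windows), and held CCAAT on the opposite strand at -206 and -72 (37.4% of all windows). C7 held TATAAA on the opposite strand at -6 (13.6% of all windows), and Cd55 held 2 GC boxes, at -77 and -7 (35.7% of all windows). Cr1l held none of the 6. A match describes the letters of the reference genome, which is that of C57BL/6J, and is not a measured binding site.

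C6 expression ordered the pools in opposite ways in the sexes. In the KK-M pool it read 4.91, 4.36 and 5.2 on the 3 arrays, and in the KK-F pool 6.32, 6.28 and 6.23. In the C57-M pool it read 5.79, 5.72 and 5.7, and in the C57-F pool 4.39, 4.68 and 4.45. C6 was thus highest in KK females, then in C57 males, with no overlap between these 2 pools, while the arrays of KK males and C57 females overlapped at the bottom. KK-M was below C57-M on every array and KK-F was above C57-F on every array.

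C7 ordered the pools by sex first and strain second. It read 6.61, 6.89 and 6.69 in KK-M and 5.86, 5.6 and 5.59 in KK-F. It read 8.35, 8.18 and 8.36 in C57-M and 6.34, 5.95 and 6.23 in C57-F. No array of any pool overlapped another pool, so that C57-M stood highest, followed by KK-M, C57-F and KK-F. The study had named C7 as a male-biased gene on these same arrays and took it on to quantitative PCR, so its sex difference here is not independent evidence.

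C9 gave low readings. It read 3.06, 3.45 and 3.24 in KK-M and 2.94, 3.16 and 3.11 in KK-F. It read 4.33, 4.37 and 4.18 in C57-M and 3.5, 3.64 and 3.78 in C57-F. Both C57BL/6J pools were above both KK/HlJ pools, and the 2 KK/HlJ pools overlapped. Only the C57-M mean (4.29 ± 0.1, SD, n = 3 arrays) reached the filter level of 4, so C9 entered the test through the pool in which it was highest.

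**Figure D1:**
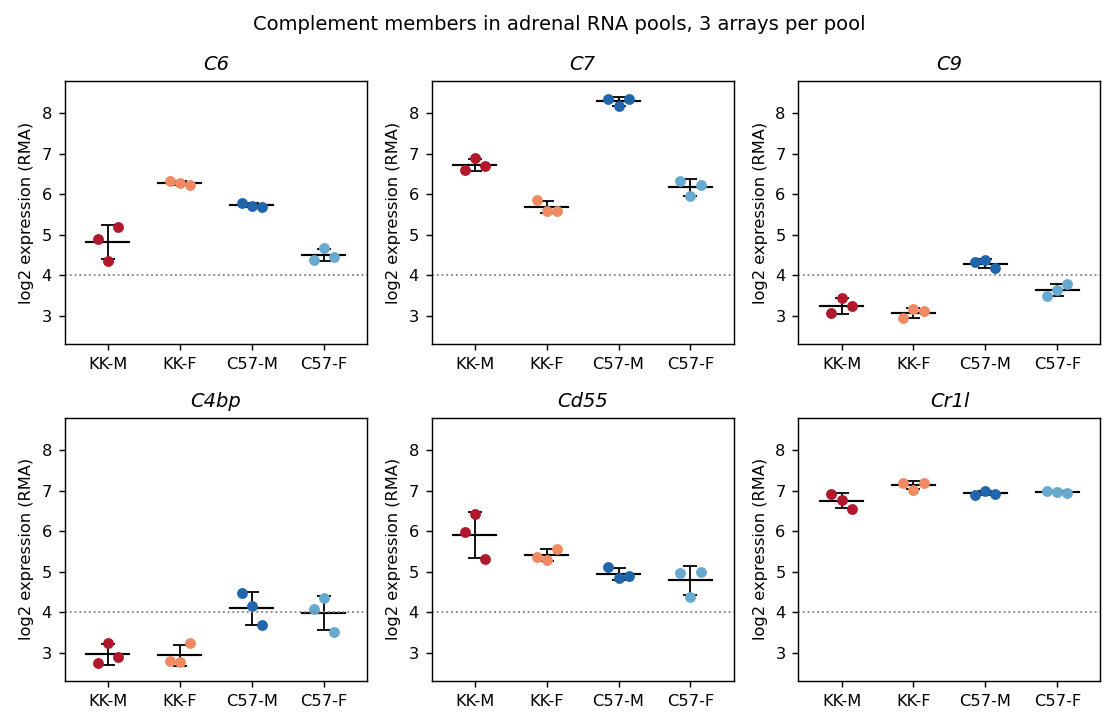
Log2 expression of the 6 complement genes on each array (points) of the 4 adrenal RNA pools, with the mean and SD of the 3 arrays as black lines and the filter level of 4 dotted. C7 and C9 are highest in C57-M, C6 is highest in KK-F, C4bp separates the strains, Cd55 is highest in KK-M, and Cr1l stays between 6.55 and 7.19.

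Among the regulators, C4bp separated the strains and not the sexes. It read 2.75, 3.23 and 2.88 in KK-M and 2.79, 2.77 and 3.24 in KK-F. It read 4.47, 4.14 and 3.67 in C57-M and 4.08, 4.34 and 3.52 in C57-F. All 6 KK/HlJ arrays were below all 6 C57BL/6J arrays, and the sexes overlapped within each strain. C4bp too passed the filter only through C57-M (4.09 ± 0.4, SD, n = 3 arrays), and the C57-F mean was 3.98 ± 0.42. Without replicate 1 of C57-M it no longer passed and was not tested.

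Cd55 ran the other way. It read 5.98, 6.43 and 5.31 in KK-M and 5.36, 5.28 and 5.57 in KK-F, against 5.11, 4.83 and 4.88 in C57-M and 4.97, 4.38 and 4.99 in C57-F. Every KK/HlJ array was above every C57BL/6J array, and the sexes overlapped within each strain. The 3 KK-M arrays spread more widely (SD 0.56) than those of the other pools (SD 0.15 to 0.35). Mouse Cd55 has a close copy beside it, Cd55b, whose own probeset had means of 3.02 in KK-M, 3.35 in KK-F, 2.9 in C57-M and 2.88 in C57-F. Whether some signal is shared between these copies was not tested.

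Cr1l was the flattest of the 6. It read 6.92, 6.78 and 6.55 in KK-M and 7.19, 7.02 and 7.18 in KK-F, against 6.9, 7 and 6.91 in C57-M and 6.99, 6.96 and 6.95 in C57-F. KK-F arrays were all the highest, and the arrays of KK-M overlapped those of C57-M.

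In males, KK/HlJ adrenals had less C6 and C7 than C57BL/6J adrenals, lower readings of C9 and C4bp, and more Cd55. C7 fell by 1.57 on the log2 scale (SE 0.12, 2.97-fold, adjusted p = 9.7e-07), the largest change among the members. C6 fell by 0.91 (SE 0.16, 1.88-fold, adjusted p = 0.00092). C4bp was at -1.14 (SE 0.23, adjusted p = 0.0023) and C9 at -1.05 (SE 0.12, adjusted p = 2.2e-05), both with KK-M means under the filter level (2.95 and 3.25), which they passed through C57-M, where they were highest. With no filter at all, the adjusted p was 0.0031 for C4bp and 3.3e-05 for C9. Cd55 rose by 0.97 (SE 0.23, 1.95-fold, adjusted p = 0.007). Cr1l was at -0.18, with a 95% confidence interval of -0.396 to 0.029 (adjusted p = 0.18).

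A gene was called where it changed at least 1.4-fold with a Benjamini-Hochberg adjusted p under 0.05 in limma. The 4 pairwise comparisons share pools and are not independent of each other. In KK-M v C57-M, 5 of the 6 members were called, 1 higher and 4 lower, and 2 of the 4 lower calls were C9 and C4bp, which passed the filter only through C57-M. With the filter at a mean of 5, which left out C9 and C4bp, 3 members were called, 1 higher and 2 lower. Of all 4414 tested genes, 20.4% were called in that comparison, 7.05% higher and 13.4% lower. The median log2 fold change was -0.98 over the members, against -0.07 over all tested genes. The terminal components had a median of -1.05 with 3 of 3 lower, and the regulators a median of -0.18 with 1 higher and 1 lower. That terminal median is the value of C9, and the lower regulator is C4bp. Both were admitted by C57-M, the high pool here, so terminal components and regulators are not set apart independently of the filter. Without replicate 1 of C57-M, 4 members were called, since C4bp was then not tested.

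In females, C6 turned about. It rose by 1.77 in KK-F relative to C57-F (SE 0.16, 3.41-fold, adjusted p = 4.6e-06), in contrast to the males. C7 fell by 0.49 (SE 0.12, 1.41-fold, adjusted p = 0.0075), just past the fold limit. Its call was lost without replicate 1 (-0.41) or replicate 3 (-0.46) of C57-F and without replicate 2 (-0.45) or replicate 3 (-0.45) of KK-F. C4bp was at -1.05 (SE 0.23, adjusted p = 0.004) and C9 at -0.57 (SE 0.12, adjusted p = 0.0022), with means under the filter level of 4 in both female pools, so these are differences between low readings. With no filter at all, the adjusted p was 0.0054 for C4bp and 0.0039 for C9. Cd55 was at 0.63 (95% confidence interval 0.124 to 1.135, adjusted p = 0.059) and Cr1l at 0.17 (-0.046 to 0.379, adjusted p = 0.23). Cd55 was called when the pair of female pools was fitted alone (adjusted p = 0.022), with a mean-variance trend (adjusted p = 0.03), with the filter at a mean of 5 (adjusted p = 0.045), and without replicate 2 (adjusted p = 0.026) or replicate 3 (adjusted p = 0.016) of KK-M.

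In KK-F v C57-F, 4 of 6 members were called, 1 higher and 3 lower, where 18.6% of all tested genes were called, 9.56% higher and 9.06% lower. Of the 3 lower calls, C9 and C4bp had been tested only because C57-M passed the filter. The median over the members was -0.16, against 0.03 over all tested genes. The terminal components counted 1 higher and 2 lower (median -0.49), and among the regulators C4bp was the single call (median 0.17).

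**Figure D2:**
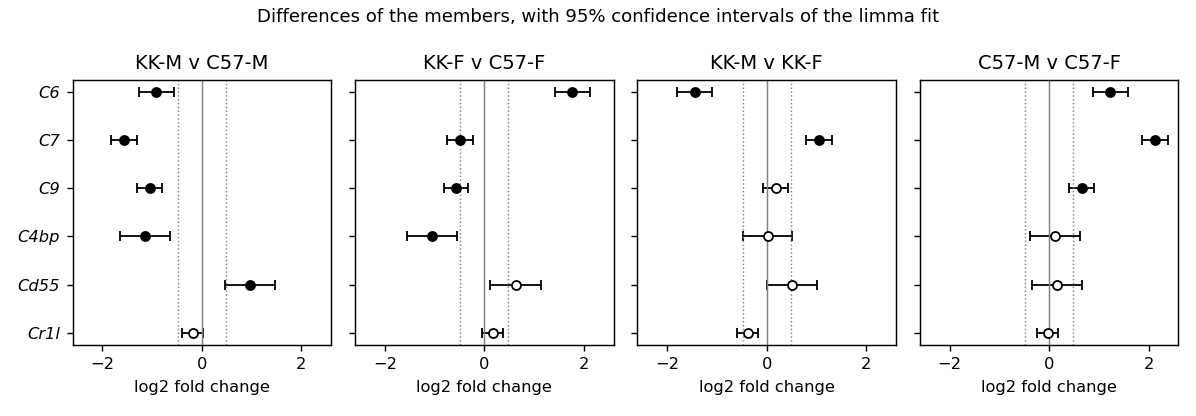
Log2 fold change of each member in the 4 pairwise comparisons, first-named pool minus second, with the 95% confidence interval of the limma fit; filled points were called, open points were not, and dotted lines mark a 1.4-fold change. C6 lies at -0.91 in KK-M v C57-M and at 1.77 in KK-F v C57-F, C7 is above 0 in both comparisons of males with females, and no regulator was called between the sexes.

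Between the sexes of KK/HlJ mice, C6 and C7 went opposite ways. C6 fell by 1.45 in KK-M relative to KK-F (SE 0.16, 2.73-fold, adjusted p = 2.5e-05) and C7 rose by 1.05 (SE 0.12, 2.07-fold, adjusted p = 3.1e-05). C9 was at 0.18 (95% confidence interval -0.071 to 0.426, adjusted p = 0.28). Cr1l was at -0.38 (SE 0.10, adjusted p = 0.01), which is 1.3-fold and under the fold limit. C4bp was at 0.02 (-0.48 to 0.518, adjusted p = 0.96) and Cd55 at 0.50 (-0.003 to 1.007, adjusted p = 0.13). Cd55 was called without replicate 3 of KK-M, its lowest array there (0.80, adjusted p = 0.0078). The 2 calls, 1 higher and 1 lower, stood where 18.8% of all tested genes were called, 7.27% higher and 11.6% lower, and the median over the members was 0.1, against -0.06 over all tested genes.

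Between the sexes of C57BL/6J mice, C6 and C7 rose in males. C9 also read higher there, but it passed the filter only through C57-M, the high pool of this comparison. Its C57-F mean (3.64) was under the filter level. C7 rose by 2.13 in C57-M relative to C57-F (SE 0.12, 4.37-fold, adjusted p = 6.1e-08), C6 by 1.23 (SE 0.16, 2.35-fold, adjusted p = 9.5e-05) and C9 by 0.65 (SE 0.12, 1.57-fold, adjusted p = 0.00086). Fewer genes differed here than in the other comparisons: 7.07% of all tested genes were called, 4.33% higher and 2.74% lower, and 3 of 6 members were called, all higher. C9 was among these 3 calls. None of the 3 regulators was called, with C4bp at 0.11 (95% confidence interval -0.388 to 0.61, adjusted p = 0.76), Cd55 at 0.16 (-0.341 to 0.67, adjusted p = 0.64) and Cr1l at -0.03 (-0.242 to 0.183, adjusted p = 0.86). The terminal components, with C9 among them, had a median of 1.23 and the regulators one of 0.11, where all tested genes had a median of 0.02. These intervals leave room for sex differences of the regulators within their bounds.

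The strain difference itself depended on sex for C6 and C7. The difference of KK-M from C57-M minus that of KK-F from C57-F was -2.68 for C6 (SE 0.23, adjusted p = 7.5e-06) and -1.08 for C7 (SE 0.17, adjusted p = 0.0011). Of the 6 members these 2 passed the test of that interaction, with no fold limit, where 16.9% of all tested genes did. C9 was at -0.48 (95% confidence interval -0.827 to -0.123, adjusted p = 0.062) and passed without replicate 2 of KK-M (-0.58, adjusted p = 0.026). Cr1l was at -0.35 (-0.651 to -0.05, adjusted p = 0.099) and passed without replicate 1 of KK-M (adjusted p = 0.042). C4bp was at -0.09 (-0.798 to 0.614, adjusted p = 0.88) and Cd55 at 0.34 (-0.378 to 1.052, adjusted p = 0.52), both with wide intervals.

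Averaged over both sexes, KK/HlJ adrenals read lower for C4bp (-1.09 ± 0.163, SE, adjusted p = 0.00012), C7 (-1.03 ± 0.085, adjusted p = 6.9e-07) and C9 (-0.81 ± 0.081, adjusted p = 4e-06) and higher for Cd55 (0.80 ± 0.165, adjusted p = 0.0015). These 4 calls, with C9 and C4bp again dependent on C57-M for passing the filter, stood where 15.5% of all tested genes were called. C6 averaged 0.43 (adjusted p = 0.0081), under the fold limit, which for C6 is the mean of 2 opposite differences, and it was called without replicate 2 of KK-M (0.55). Cr1l averaged -0.01 (adjusted p = 0.93). Averaged over both strains, C7 was the 1 member called between males and females (1.59 ± 0.085, SE, 3.01-fold, adjusted p = 2.1e-08), where 8.61% of all tested genes were called. C9 was at 0.42 (adjusted p = 0.0017) and Cr1l at -0.20 (adjusted p = 0.038), both under the fold limit.

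**Figure D3:**
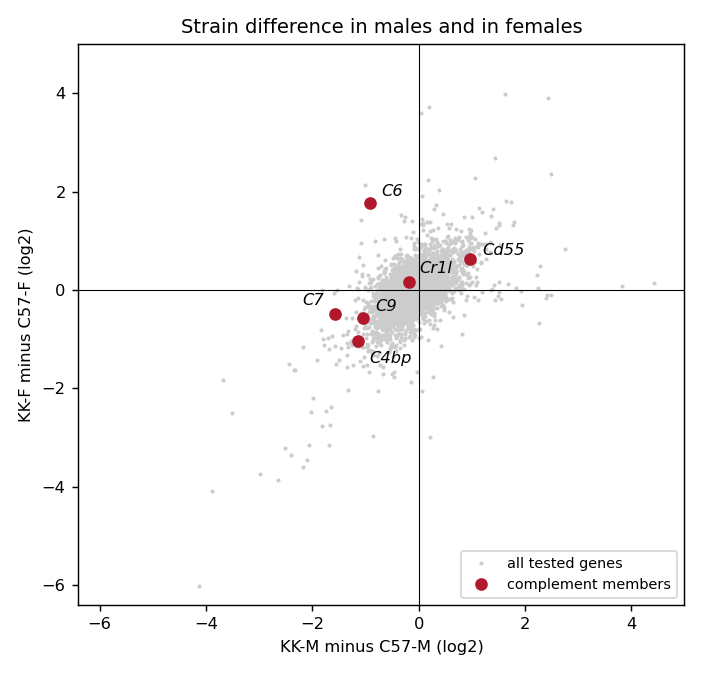
Strain difference in males (horizontal, KK-M minus C57-M, log2) against that in females (vertical, KK-F minus C57-F, log2) for the 4414 tested genes (grey) and the 6 members (red). C7, C9 and C4bp lie below 0 on both axes, Cd55 lies above 0 on both, and C6 lies at -0.91 and 1.77.

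Of 53 other complement genes listed, 12 had a probeset with a single symbol here, and 6 of these passed the filter. The study itself listed C3 and Masp1 as higher in female adrenals of both strains. It also listed Cfd as higher in C57BL/6J and Masp2 as higher in KK/HlJ, in adrenal and pancreas. None of these genes had a probeset with a single symbol here, so the wider pathway is covered only in part. Among the 6 tested genes, vitronectin (Vtn), a plasma and matrix protein that keeps the terminal complex out of membranes, changed most. Vtn read 5.67, 4.93 and 5.09 in KK-M and 4.54, 4.79 and 4.88 in KK-F, against 6.93, 6.85 and 6.97 in C57-M and 7.93, 7.78 and 7.95 in C57-F. The KK/HlJ arrays were all below the C57BL/6J arrays. Vtn fell by 1.69 in KK-M relative to C57-M (SE 0.157, adjusted p = 5.5e-06) and by 3.15 in KK-F relative to C57-F (SE 0.157, adjusted p = 1.9e-08). In C57-M it fell by 0.98 relative to C57-F (adjusted p = 0.00045), opposite in direction to C6, C7 and C9. In KK-M it rose by 0.49 relative to KK-F (adjusted p = 0.033), and no higher call remained among the 6 genes without replicate 1 of KK-M or without replicate 1 or 2 of KK-F.

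Itgb2, the shared beta chain of the leukocyte complement receptors, was highest in C57-M. It read 5.3, 5.59 and 5.6 in KK-M and 5.48, 5.72 and 5.6 in KK-F, against 5.81, 6.17 and 6.45 in C57-M and 5.56, 5.64 and 5.38 in C57-F. It fell by 0.65 in KK-M relative to C57-M (SE 0.147, adjusted p = 0.0047) and rose by 0.62 in C57-M relative to C57-F (adjusted p = 0.0065), a call lost without replicate 3 of C57-M (no higher call among the 6 genes). Itgb2 was at 0.07 in KK-F v C57-F (adjusted p = 0.75). Clu, a secreted chaperone that also binds the terminal complex, was at -0.45 in KK-F v C57-F (adjusted p = 0.003), under the fold limit. The collectin gene Colec11 and the membrane regulator genes Cd46 and Susd4 were called in none of the 4 pairwise comparisons. Over the 6 tested genes the counts were 2 lower in KK-M v C57-M, 1 lower in KK-F v C57-F, 1 higher in KK-M v KK-F, and 1 higher and 1 lower in C57-M v C57-F, with medians of -0.28, 0.01, 0.05 and -0.01. Of all tested genes, 20.4%, 18.6%, 18.8% and 7.07% were called in the same order, with medians of -0.07, 0.03, -0.06 and 0.02.

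Hepatocyte genes moved with C9, C4bp and Vtn between the strains. Of 14 hepatocyte genes measured out of 21 listed, 1 rose and 9 fell in KK-M relative to C57-M (median -1.88) and 10 fell in KK-F relative to C57-F (median -3.06). Of all tested genes, 7.05% were called higher and 13.4% lower in KK-M v C57-M, and 9.06% lower in KK-F v C57-F. The means of 4 of the 14 were under the filter level in KK-M, 3 in KK-F, 1 in C57-M and 0 in C57-F. Between the C57BL/6J sexes the list ran against C9: 6 hepatocyte genes fell in C57-M relative to C57-F (median -0.58), where C9 rose by 0.65 and C4bp was at 0.11. Of all tested genes, 2.74% were called lower there. Within KK-M, 9 of the 14 hepatocyte genes were highest on replicate 1, among them Serpina1d, a member of a family of near-identical copies, which read 5.56 there and 2.54 and 2.69 on the other arrays, and Cps1, which read 5.67, against 3.96 and 4.3. On that array Vtn (5.67) was also at its highest of the 3. C9 (3.06) and C4bp (2.75) were at their lowest of the 3 there, and both were under the filter level on all 3. Without that array the members called in KK-M v C57-M still numbered 5. The part of hepatocyte RNA in the differences of C9, C4bp and Vtn was not tested further.

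Macrophage genes moved with C6 in part. Their summed linear signal, over the 4 measured of 9 listed, was 1090 to 1280 in KK-M, 1190 to 1570 in KK-F, 1750 to 1850 in C57-M and 855 to 932 in C57-F. Of the 4, 2 fell in KK-M relative to C57-M, 3 rose and 1 fell in KK-F relative to C57-F, and 4 rose in C57-M relative to C57-F. Of all tested genes, 13.4% were called lower in KK-M v C57-M. In KK-F v C57-F, 9.56% were called higher and 9.06% lower, and in C57-M v C57-F 4.33% were called higher. The macrophage gene Cd68, like C6, was lower in KK-M than in C57-M (log2 fold change -1.08, adjusted p = 4.8e-06) and higher in KK-F than in C57-F (0.96, adjusted p = 1.3e-05), with an interaction of -2.04 (adjusted p = 8.9e-07). In the interaction, 3 of the 4 macrophage genes were called lower and 0 higher, where 16.9% of all tested genes passed. Cd68 aside, genes of the list did not all follow C6 in the pairwise comparisons. Lyz2, a lysozyme gene, was at -0.14 in KK-M v C57-M (adjusted p = 0.49) and rose by 1.05 in KK-F relative to C57-F (adjusted p = 0.00011), and its interaction was -1.19 (adjusted p = 0.0016). Fcer1g fell in both sexes, by 1.46 in KK-M relative to C57-M (adjusted p = 5.9e-08) and by 1.19 in KK-F relative to C57-F (adjusted p = 3.7e-07), and its interaction was -0.27 (adjusted p = 0.12). In KK-M v KK-F, where C6 fell 2.73-fold, 1 macrophage gene rose (Fcer1g), 1 fell (Cd68) and 2 were not called. Of 10 fibroblast, capsule and stroma genes measured out of 12 listed, 6 rose and 1 fell in KK-M relative to KK-F and 4 rose in C57-M relative to C57-F, the 2 comparisons in which C7 rose. In KK-M v KK-F, 7.27% of all tested genes were called higher and 11.6% lower. The stroma list gave 1 higher and 3 lower in KK-M v C57-M and 6 lower in KK-F v C57-F. Its summed linear signal was 3050 to 3090 in KK-M, 2570 to 2800 in KK-F, 3380 to 3610 in C57-M and 2800 to 2900 in C57-F. Its median was 0.6 in KK-M v KK-F and 0.14 in C57-M v C57-F, where C7 rose by 1.05 and 2.13. The interaction was called higher for 3 stroma genes and lower for 1, where C7 was at -1.08. Of all tested genes, 16.9% passed that test. Neither the presence of these cell types in each pool nor their part in the differences of C6 and C7 was tested.

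**Figure D4:**
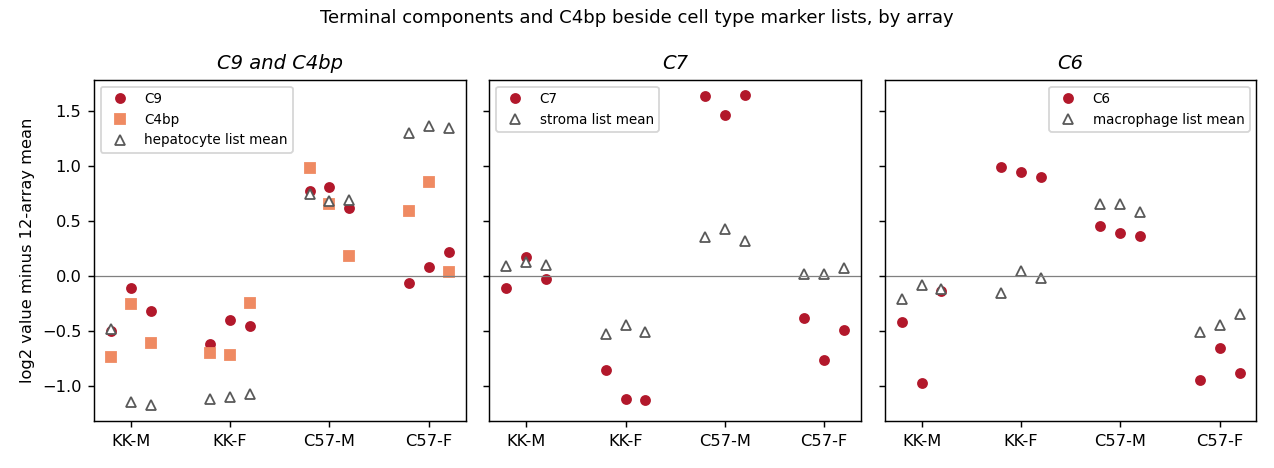
Log2 value of each array minus the mean of the 12 arrays for C9 and C4bp beside the mean of 14 hepatocyte genes, for C7 beside the mean of 10 stroma genes and for C6 beside the mean of 4 macrophage genes. The hepatocyte mean is highest in C57-F, where C9 is below its C57-M level, and the C7 and stroma means are both highest in C57-M and lowest in KK-F.

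Across the 12 arrays, C7 and C9 varied together (Pearson r = 0.84), as did C9 and C4bp (r = 0.8), while C6 was at r = 0.02 with C7 and at -0.078 with C9. C4bp and Cd55 ran opposite (r = -0.64). These values describe 4 pools with 3 arrays each. C9 and C4bp had means under the filter level in every pool but C57-M, where both were highest. Their correlations, and the genes listed below as most like them, thus rest in large part on low readings. The genes most like C7 were Slc45a3 (r = 0.978), Abr (0.957) and Ndrg1 (0.957), and those most like C9 were Rspo3 (0.972), a secreted Wnt agonist of the adrenal capsule in mice, Hoxb9 (0.967) and Fcer1g (0.96), the Fc receptor gamma chain of myeloid cells. C6 was followed most closely by Rev3l (0.904), Fdft1 (0.897), a squalene synthase of the cholesterol pathway, and Ddx5 (0.896). C4bp was most like Coq10b (0.951), Vrk1 (0.938) and Iars (0.929), Cd55 most like Ndufa4l2 (0.908), Ankrd52 (0.899) and Sostdc1 (0.894), and Cr1l most like Mcm3 (0.957), Stxbp5 (0.944) and Lemd3 (0.93).

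Genes that lie between the terminal components were measured in part. Of the 6 coding genes between C7 and C9, 4 were tested (Prkaa1, Ttc33, Ptger4 and Dab2). The single call among them in the 4 pairwise comparisons was Dab2, an endocytic adaptor, which fell by 0.53 in KK-F relative to C57-F (adjusted p = 0.00011), a comparison in which C7 and C9 were also called lower. Of all tested genes, 9.06% were called lower there. Mroh2b, between C6 and C7, was not tested. In KK-M v C57-M, where C7 fell 2.97-fold, Dab2 was at -0.32 (adjusted p = 0.0039) and Prkaa1 at -0.33 (adjusted p = 0.014), both under the fold limit. Prkaa1 also passed the test of the interaction in limma (-0.53, adjusted p = 0.014), as did 16.9% of all tested genes. Ttc33, Ptger4 and Dab2 did not.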

How the data were processed

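Adrenal RNA pools of 4 groups were each measured on 3 Affymetrix arrays. The values deposited by the authors are log2 expression levels of probesets, made with Partek by robust multi-array averaging (background correction, quantile normalization and median polish), and these values were used without further normalization. Of 16378 probesets, 7358 had 1 gene in the platform annotation, 456 had several and 8564 were unnamed here; 7310 were matched to RefSeq by gene ID. The probeset with the highest mean over the 12 arrays represented each of 6986 genes. After a filter (mean of at least 4 in at least 1 group), 4414 genes were fitted with limma 3.58.1 in R 4.3.3, with 1 mean per group. P-values were adjusted (Benjamini-Hochberg) over all 4 pairwise contrasts together, and on their own for the mean strain, mean sex and interaction contrasts. Intervals are those of the fit. The number of arrays limits precision. Scripts were tested on simulated data.

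All members were named, with other complement genes that were called in a pairwise contrast, the 3 tested genes most correlated with each member (clone names and small RNAs left out) and up to 3 of the brightest genes per marker list. Serpina1d, Clu, Colec11, Cd46, Susd4, Cd55b and the genes that neighbour the members were named outside that rule, after their values were seen. The members and lists were chosen with earlier results of these data known. The alternatives were other filters, scalings, variance models, probeset rules, fold limits and p adjustments, a replicate block, fits of the compared groups alone, and each array left out in turn.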

Additional observations from a re-analysis of the deposited data

Results flagged for a closer look

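The strain difference in C6 was not the same in the sexes. KK-M minus C57-M less KK-F minus C57-F came to -2.68 on the log2 scale (adjusted p = 7.5e-06 in limma), with C6 lower in KK-M on 3 of 3 arrays and higher in KK-F on 3 of 3 arrays. The same difference for C7 was -1.08 (adjusted p = 0.0011), with C7 lower in KK/HlJ in both sexes and further apart in males. Both values rest on 1 RNA pool per group.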

How the results depend on the processing

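Over all alternatives, 940 of the members' values kept direction and side of the threshold, 14 passed a threshold they had missed, 11 no longer passed and 16 changed sign. Members called fell to 3 with a filter at 5 and to 3 with a 2-fold limit in KK-M v C57-M, to 2 with a 2-fold limit in KK-F v C57-F, and to 2 under each of these in the mean strain difference; C9 and C4bp were not tested with the filter at 5. With no fold limit, 3 members passed in the mean sex difference. Other complement genes called became 1 in KK-M v C57-M and 0 between the sexes of either strain with a 2-fold limit, 2 in KK-F v C57-F with no filter, with median centring or with no fold limit, and 0 in KK-M v KK-F with an ordinary linear model or the compared groups alone. With no fold limit, calls over all genes were 1600 between the males of both strains, 1457 between the females, 1523 between the KK/HlJ sexes and 730 between the C57BL/6J sexes, and with a 2-fold limit 170, 184, 155 and 34 in the same order. Cr1l changed sign near 0, to 0.01 in C57-M v C57-F with median centring and to 0.04 in the mean strain difference with renewed quantile normalization.

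The higher and lower calls over all genes were 311 and 591 in KK-M v C57-M and became 406 and 415 with renewed quantile normalization. In KK-F v C57-F they were 422 and 400, and became 364 and 464 with it and 348 and 469 with median centring. In KK-M v KK-F they were 321 and 510, and became 497 and 312 with the first and 443 and 352 with the second; no member's call depended on either scaling.

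Leaving out each array in turn gave 4 to 5 members called in KK-M v C57-M, 3 to 5 in KK-F v C57-F, 2 to 3 in KK-M v KK-F, 3 in C57-M v C57-F, 3 to 5 in the mean strain difference, 1 in the mean sex difference and 2 to 3 in the interaction. Values that changed sign were C4bp in C57-M v C57-F (-0.12 to 0.32), in KK-M v KK-F (-0.12 to 0.17), in the mean sex difference (-0.05 to 0.17) and in the interaction (-0.3 to 0.14), Cd55 in C57-M v C57-F (-0.04 to 0.27), C6 in the mean sex difference (-0.2 to 0.01) and Cr1l in the mean strain difference (-0.05 to 0.04). The other complement genes gave 2 in KK-M v C57-M, 1 to 2 in KK-F v C57-F, 0 to 1 in KK-M v KK-F and 1 to 2 in C57-M v C57-F, and all genes gave 842 to 1001, 812 to 849, 788 to 905 and 300 to 340.

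Replicate numbers did not pair the arrays (correlations of deviations from -0.1 to 0.12). With the replicate number as a block, members called stayed at 5, 4, 2 and 3 in the 4 pairwise comparisons and became 3 in the interaction, through C9 (-0.48, adjusted p = 0.049); calls over all genes were 908, 824, 827 and 310. C9 and C4bp had means under the filter level in 3 of the 4 groups. The cause of these shifts was not tested.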
